A study of Mus musculus with 59 samples.

Results

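Imprinted genes were followed through 14 single mouse epiblasts taken at E6.25, just before gastrulation, from embryos that lacked the H3K9 methyltransferase G9a (gene Ehmt2) or the H3K27 methyltransferase EZH2, and from their controls. Members were a fixed list of 55 symbols covering the best known imprinted clusters, out of 22119 genes with a listed transcript. Each gene was represented by its transcript with the highest mean raw count. A transcript was listed for 51 of the 55. Kcnq1ot1, Rian, Mirg and Airn, long noncoding RNAs of the Kcnq1, Dlk1-Meg3 and Igf2r clusters, matched no listed transcript, and no level is given for them.

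In the Ehmt2 cross, 4 epiblasts labelled G9a+/+ and 4 labelled G9a-/- came from intercrosses of Ehmt2+/- mice, a line also crossed to an Oct4-driven GFP reporter. In the Ezh2 cross, 3 epiblasts labelled Ezh+/+ and 3 labelled Ezh-/- came from intercrosses of Ezh2+/- mice. All were on a mixed background, and the study's methods describe the controls as either wild type or heterozygous. Both deletions were inherited through the germ line, so that the extraembryonic tissues of a knockout embryo lacked the enzyme too. Amplification started from 750 pg of RNA per epiblast, so each value is 1 embryo, and the counts do not separate the maternal from the paternal allele.

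Imprinted genes are transcribed mainly from the allele inherited from 1 parent. For most, the choice is set by DNA methylation that an egg or sperm placed at an imprinting control region and that survives the wave of demethylation after fertilisation. In the placental lineages some genes, including Sfmbt2, Gab1 and Smoc1, are known to be imprinted through histone methylation instead, and outlying genes of the Kcnq1 and Igf2r clusters are silenced there by a noncoding RNA that works with G9a and Polycomb proteins. Imprinted genes as a group are known for growth control and for roles in the placenta.

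The promoters of 5 members are shown as examples chosen after their values were seen: Sfmbt2 and Gab1, which rose in Ehmt2 knockouts, Plagl1, which met the per-embryo rule (defined below with the counts) in Ezh2 knockouts, and the neighbours Magel2 and Mkrn3. The sequences are from RefSeq (GRCm38.p6), run 5′ to 3′ from 250 bases before to 50 bases after the start nearest to the counted transcript, and have each CpG, the dinucleotide that carries DNA methylation, in capitals.
Sfmbt2 (chr2:10372186-10372485, plus strand): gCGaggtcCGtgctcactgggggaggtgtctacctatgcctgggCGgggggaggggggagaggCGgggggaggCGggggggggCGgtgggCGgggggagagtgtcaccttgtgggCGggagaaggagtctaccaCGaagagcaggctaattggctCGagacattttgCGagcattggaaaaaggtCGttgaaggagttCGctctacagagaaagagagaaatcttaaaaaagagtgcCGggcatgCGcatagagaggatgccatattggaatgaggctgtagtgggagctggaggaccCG
Gab1 (chr8:80880430-80880729, minus strand): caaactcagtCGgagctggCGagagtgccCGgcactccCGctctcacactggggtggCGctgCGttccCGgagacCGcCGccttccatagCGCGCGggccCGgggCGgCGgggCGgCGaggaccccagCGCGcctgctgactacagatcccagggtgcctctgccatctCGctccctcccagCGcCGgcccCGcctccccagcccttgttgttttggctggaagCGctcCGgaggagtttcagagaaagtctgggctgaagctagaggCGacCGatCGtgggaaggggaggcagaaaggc
Plagl1 (chr10:13090582-13090881, plus strand): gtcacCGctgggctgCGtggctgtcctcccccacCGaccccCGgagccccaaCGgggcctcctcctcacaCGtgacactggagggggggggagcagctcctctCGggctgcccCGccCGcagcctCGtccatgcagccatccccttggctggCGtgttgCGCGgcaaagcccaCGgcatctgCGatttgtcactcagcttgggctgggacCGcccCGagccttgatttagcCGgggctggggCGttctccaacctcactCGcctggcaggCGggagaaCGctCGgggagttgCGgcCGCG
Magel2 (chr7:62376729-62377028, plus strand): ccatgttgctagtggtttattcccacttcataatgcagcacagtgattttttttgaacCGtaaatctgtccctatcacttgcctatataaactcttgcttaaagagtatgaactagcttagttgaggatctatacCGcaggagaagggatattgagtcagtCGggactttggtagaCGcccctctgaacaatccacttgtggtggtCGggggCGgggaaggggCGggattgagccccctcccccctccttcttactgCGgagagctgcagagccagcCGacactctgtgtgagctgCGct
Mkrn3 (chr7:62420104-62420403, minus strand): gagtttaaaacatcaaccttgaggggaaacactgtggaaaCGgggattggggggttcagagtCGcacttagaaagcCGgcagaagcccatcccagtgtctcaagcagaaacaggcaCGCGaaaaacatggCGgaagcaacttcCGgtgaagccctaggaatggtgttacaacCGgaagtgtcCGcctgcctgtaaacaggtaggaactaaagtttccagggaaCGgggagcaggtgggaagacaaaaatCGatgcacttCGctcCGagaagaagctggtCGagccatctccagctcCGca
The nearest start lay within 44 bases of the counted transcript's 5′ end for all 5. For Igf2, also called, it lay 685 bases away, and its promoter is not shown. Gab1 held 28 CpGs, Plagl1 26, Sfmbt2 16, Mkrn3 15 and Magel2 10. Of the 51 listed members, 40 had a promoter in the table, with a median of 17 CpGs, against 7 over all 32851 promoters. For 35 of the 40 the start lay within 100 bases of the counted transcript's 5′ end. The hexamer TGCCGC, the core of the motif of ZFP57, a zinc finger protein that protects imprints, was searched on both strands. It lay in 11 of the 40 member promoters (27.5%) and in 11.6% of all promoters. The hexamer itself holds a CpG, and these shares were not matched for CpG content. Among the 5 shown it occurred once, in Plagl1. A match is only a run of letters, and no binding was measured here.

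The 14 libraries held between 12486142 and 28414902 counts over 1 transcript per gene. At that depth 3 counts, the most that a count of 0 allows, correspond to 0.106 to 0.240 CPM (counts per 1000000 counts of the library, scaled by TMM wherever genes are compared), which covers counting error only. Replicate 4 of the Ehmt2 cross, 1 control and 1 knockout, stood apart from replicates 1 to 3. Chi-square per degree of freedom between epiblasts of 1 genotype was 146 to 192 with replicate 4 and 16.7 to 31.0 without it. The replicate 4 libraries were also the deepest, at 25347778 and 28414902 counts, and this statistic grows with depth. The Ehmt2 transcript fell to a mean of 13.1 CPM from 42.3 CPM, a log2 fold change of −1.65 (standard error, SE, 0.22; adjusted p = 0.00356 from edgeR). Ezh2 had 28.8 to 39.99 CPM in its knockouts and 132 to 276 CPM in controls (log2 fold change −2.55, SE 0.27, adjusted p = 0.0784). The sum over 8 epiblast markers was 5981 to 6853 CPM in Ehmt2 controls and 3525 to 4945 CPM in Ehmt2 knockouts, without overlap, and in replicate 4 it was 6110 against 4802 CPM. Most of this sum was Dnmt3b, at 3695 to 5095 CPM in Ehmt2 controls and 2401 to 3457 CPM in Ehmt2 knockouts. In the Ezh2 cross the sum was 5872 to 6451 CPM in controls and 4695 to 6120 CPM in knockouts. Of the 8 epiblast markers 6 had a negative log2 fold change in the Ehmt2 cross, with a median of −0.32 over the 8. The 2 positive ones were Sox2 (0.26) and Pou3f1 (0.01). Fgf5 was the epiblast marker with an adjusted p under 0.05 in that cross (log2 fold change −0.72, adjusted p = 0.031 from edgeR). Otx2 and Dnmt3b had each Ehmt2 knockout below every control, and in the other markers the groups overlapped. The part of these differences in the imprinted genes' values was not tested. Markers of neighbouring tissues were present too. The sum over 6 extraembryonic ectoderm markers was 377, 86.1, 100.8 and 1.79 CPM in Ehmt2 knockouts 1 to 4 and 4.21 to 14.2 CPM in controls. The sum over 8 visceral endoderm markers was 2854 CPM in Ezh2 control 2 and 6421 CPM in Ezh2 knockout 1, against 27.5 to 54.3 CPM in the remaining Ezh2 epiblasts. The 4 decidua and blood markers summed to at most 42.6 CPM (Ehmt2 knockout 3), nearly all of it decidual Prl8a2, and the 4 primitive streak markers to between 36.4 and 461 CPM.

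Most members were expressed in the normal epiblast. In the 7 controls 18 members had a mean of 10 CPM per kb of transcript or more, 18 had 1 to 10, and 15 had less than 1. Levels are given per kb wherever genes are compared with each other, with CPM scaled within each cross. Snrpn, which encodes a spliceosome protein and is read from the paternal allele, was the most abundant at 210 ± 15.6 CPM per kb (SD, n = 7). Gnas, the stimulatory G protein alpha subunit, followed at 109 ± 11.21, and Grb10, a maternally expressed adaptor that restrains insulin and growth factor signalling, at 105 ± 23.9; these 2 did not differ beyond their spread. Mest, a paternally expressed hydrolase-like protein, had 83.4 ± 16.7 CPM per kb, and the tetraspanin Cd81 76.7 ± 10.8. The nucleosome assembly protein Nap1l4 had 52.0 ± 2.81 CPM per kb, with the narrowest relative spread of the first 10.

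The paternally expressed zinc finger gene Peg3 had 40.9 ± 24.5 CPM per kb and the maternal noncoding RNA H19 38.1 ± 33.3, so that their control epiblasts differed as much as the genes did. Meg3, the maternal noncoding RNA of the Dlk1-Meg3 cluster, had 28.7 ± 6.66, and the coatomer subunit Copg2 27.1 ± 3.73 CPM per kb. Mest and Copg2 overlap tail to tail, with 35.5% of the Mest transcript over Copg2 exons on the opposite strand. Reads of the unstranded libraries cannot be told apart there. Opposite-strand exons also cover 37.6% of the Gnas transcript (Gm20721) and 31.2% of the Cdkn1c transcript (Gm44732). At the low end, Dlk1, a membrane ligand related to Notch ligands, had 0.0735 CPM per kb, and Tspan32, a further tetraspanin of the Kcnq1 cluster, had no count in the 7 controls. Within the Dlk1-Meg3 cluster the level of Meg3 was thus far above that of its paternal neighbour Dlk1.

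**Figure D1:**
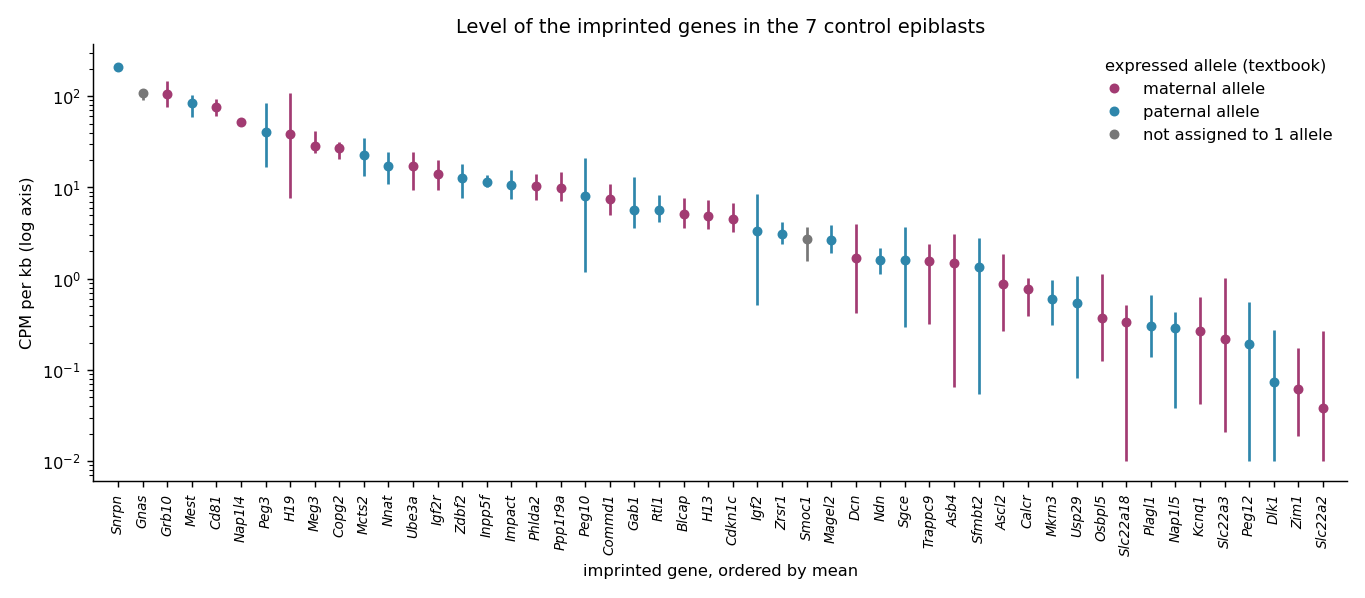
Each point is the mean level of an imprinted gene over the 7 control epiblasts in CPM per kb of transcript (log axis), coloured by the allele it is known to be expressed from, and each bar runs from the lowest to the highest control; 4 lower ends at 0 are drawn at 0.01 CPM per kb. Snrpn leads at 210 CPM per kb, and H19, Peg10, Igf2 and Sfmbt2 have wide bars, with 7.74 to 108.8 CPM per kb for H19.

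For each cross the question was which imprinted genes depended on the deleted methyltransferase. Of the 55 members 44 passed the filter on low counts in the Ehmt2 cross, and 7 of the 51 listed did not (Tspan32, Zim1, Peg12, Dlk1, Slc22a2, Slc22a3 and Nap1l5). A call needed a log2 fold change beyond 1.4 together with an adjusted p under 0.05 (quasi-likelihood test of edgeR). In Ehmt2 knockouts 4 members were called higher (Sfmbt2, Gab1, Igf2 and Smoc1), where 0.815% of the 13738 genes tested were, and 0 were called lower, where 0.0873% of all genes were. The 4 became 7 without replicate 4 (with H19, Peg10, Phlda2 and Cdkn1c added and Smoc1 lost), 2 without any 1 of controls 1 to 3 (Sfmbt2 and Gab1), and 1 (Gab1) without the model's term for the comparison set, which separates replicates 1 to 3 from replicate 4; without replicate 4 Magel2 was called lower. At an unadjusted p under 0.05, 12 members were higher against 7.48% of all genes, and 6 were lower against 6.96%. The per-embryo rule, modelled on the study's methods, asks for a log2 fold change beyond 1.4 in every knockout and a combined p under 0.05 without adjustment. The methods compare each knockout with all controls. In that form the rule gave Gab1 higher (0.772% of all genes) and Mkrn3 lower (0.211%). With each knockout set against the controls of its own set, replicates 1 to 3 or replicate 4, it gave Sfmbt2 and Gab1 higher (0.844%) and Mkrn3 lower (0.204%). The names of the study's comparison columns set knockout 4 against control 4 alone; the sets used here follow those names, not the methods text. Groups did not overlap in 3 members with each knockout above every control (3.25% of all genes) and in 5 with each knockout below (2.98%). The median log2 fold change was 0.06 over the 44 members and −0.01 over all genes, with 25 members above 0 and 19 below. In either direction 18 of the 44 had an unadjusted p under 0.05, where 14.4% of all genes did.

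Sfmbt2, a paternally expressed gene for a Polycomb-related protein needed in trophoblast, rose most (chromosome 2, 10372450 to 10595253, plus strand, GRCm38). Its 4 controls had 14.5, 15.7, 9.35 and 0.426 CPM, and knockouts 1 to 4 had 966, 135, 187 and 13.2 CPM. Each knockout was far above the controls of its own comparison set, although knockout 4 did not exceed controls 1 and 2. The log2 fold change was 5.01 (SE 0.60, adjusted p = 0.00175 from edgeR), and single knockouts lay between 3.35 and 6.19 against the controls of their set. Without the term for the comparison set the adjusted p was 0.164.

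Gab1, a docking protein for receptor tyrosine kinases with a role in the placenta, is also known to be read from the paternal allele there (chromosome 8, 80764440 to 80880496, minus strand). It had 21.3, 25.6, 23.04 and 19.9 CPM in controls and 424, 179.6, 165 and 85.7 CPM in knockouts 1 to 4. The controls were close together and every knockout was above all of them (p = 0.0286 in an exact permutation test, two-sided, which is as small as 4 against 4 can give). The log2 fold change was 3.13 (SE 0.33, adjusted p = 0.000796 from edgeR), between 2.10 and 4.18 in single knockouts, and the call was kept under each of 17 alternative analyses.

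Smoc1 encodes a secreted calcium-binding matrix protein (chromosome 12, 81026808 to 81186414, plus strand). It had 9.29, 7.75, 12.97 and 5.49 CPM in controls and 40.8, 17.7, 22.4 and 30.2 CPM in knockouts. Again the groups did not overlap (exact permutation p = 0.0286), with a log2 fold change of 1.69 (SE 0.33, adjusted p = 0.031 from edgeR). The call was lost in 11 of 17 alternatives, among them leaving out any 1 control or knockout 1 or 4 (adjusted p from 0.0572 to 0.104 in those 6), while the log2 fold change stayed between 1.43 and 1.90.

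Igf2, the paternally expressed fetal growth factor, and H19 share enhancers and an imprinting control region on chromosome 7 (Igf2 at 142650769 to 142659489, H19 at 142575529 to 142578143, both minus strand). Igf2 had 21.7, 11.0, 16.4 and 2.43 CPM in controls and 410.1, 115, 131 and 4.85 CPM in knockouts 1 to 4. Knockouts 1 to 3 were above every control and knockout 4 was not (log2 fold change 3.24, SE 0.54, adjusted p = 0.0143 from edgeR; exact permutation p = 0.114). H19 had 93.9, 85.7, 63.2 and 17.7 CPM in controls and 1754, 545, 447 and 15.2 CPM in knockouts. Its log2 fold change was 2.76 (SE 0.65), and the adjusted p of 0.0667 missed the threshold. The maternal and the paternal member of this pair thus lay on the same side. The call of Igf2 was lost without control 1, 2 or 3 and without the term for the comparison set (adjusted p = 0.227).

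In 3 other genes with known placental roles knockouts 1 to 3 were high as well, and none passed the adjusted threshold. Peg10, a retrotransposon-derived paternally expressed gene, had 83.4, 46.2, 34.5 and 7.83 CPM in controls and 850.4, 311, 241 and 5.76 CPM in knockouts (log2 fold change 2.42, SE 0.62, adjusted p = 0.0900 from edgeR). Phlda2, a maternally expressed gene that restrains placental growth, had 6.68, 5.57, 7.44 and 8.55 CPM in controls and 53.0, 15.1, 33.9 and 9.98 CPM in knockouts. Its groups did not overlap, by a margin set by knockout 4 (log2 fold change 1.86, SE 0.46, adjusted p = 0.0760; exact permutation p = 0.0286). Cdkn1c, a maternally expressed cell cycle inhibitor of the same cluster, had 6.26, 8.76, 9.87 and 6.09 CPM in controls and 38.6, 22.0, 25.9 and 5.21 CPM in knockouts (log2 fold change 1.32, SE 0.38, adjusted p = 0.139).

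These 5 genes and the extraembryonic ectoderm markers were high in the same epiblasts. Sfmbt2 and Gab1 were likewise highest in knockout 1, where the marker sum was highest, and among the knockouts lowest in knockout 4, where it was lowest. All 6 markers had a positive log2 fold change in the Ehmt2 cross, with a median of 3.71, 6 at an unadjusted p under 0.05 and 2 at an adjusted p under 0.05 (edgeR). Elf5, a defining factor of that tissue, had 148, 14.5 and 29.8 CPM in knockouts 1 to 3 and was at 0 in knockout 4 and control 4; Cdx2 was at 0 in both as well. The part of this tissue in the differences of replicates 1 to 3 was not tested. In a whole epiblast, more cells of a type and more RNA per cell cannot be told apart. Replicate 4, in which the marker sum was 1.79 CPM in the knockout and 4.21 CPM in the control, has 1 epiblast a genotype and no test. On the log2(CPM + 0.5) scale knockout 4 minus control 4 was 3.88 for Sfmbt2, 2.36 for Smoc1 and 2.08 for Gab1. The same difference was 0.87 for Igf2, 0.21 for Phlda2, −0.21 for H19, −0.21 for Cdkn1c and −0.41 for Peg10. Replicate 4 stood apart from the other libraries, so these are values of a single pair of epiblasts. With replicate 1 left out of both groups, a choice made after the data were seen, Sfmbt2 and Gab1 kept log2 fold changes of 3.92 and 2.58 (adjusted p = 0.00023 and 0.000196 from edgeR), while Smoc1 had 1.45 (adjusted p = 0.162).

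**Figure D2:**
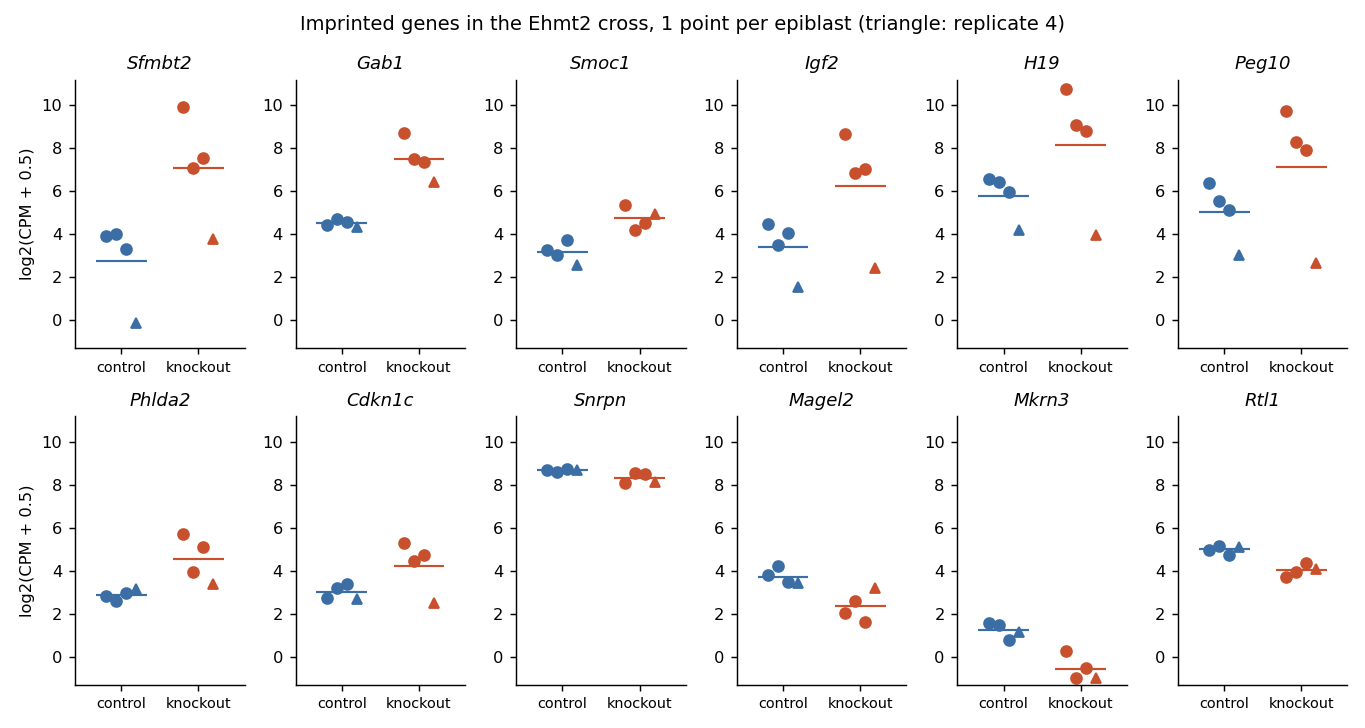
Each point is an epiblast of the Ehmt2 cross, as log2(CPM + 0.5), for 12 imprinted genes; circles are replicates 1 to 3, triangles replicate 4, and lines the mean of the log2 values. Gab1, Smoc1 and Phlda2 have every knockout above every control, Snrpn, Magel2, Mkrn3 and Rtl1 have every knockout below, and in Igf2, H19, Peg10 and Cdkn1c the triangles of both groups lie close together.

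The Snrpn cluster on chromosome 7 held 3 of the 5 members with each Ehmt2 knockout below every control. Its paternally expressed genes lie in the mouse counterpart of the Prader-Willi region. Magel2, a MAGE family protein that regulates ubiquitin ligases (62377010 to 62381640, plus strand), had 13.7, 18.1, 10.8 and 10.3 CPM in controls and 3.68, 5.58, 2.60 and 8.64 CPM in Ehmt2 knockouts. Every knockout was below every control (exact permutation p = 0.0286), with a log2 fold change of −1.45 (SE 0.40, adjusted p = 0.114 from edgeR). Without replicate 4 of both groups the log2 fold change was −1.85 and the adjusted p was 0.0346. Mkrn3, a makorin ring finger protein (62417593 to 62420139, minus strand), had 41, 43, 19 and 41 counts in controls and 10, 0, 3 and 0 counts in knockouts. In CPM these were 2.49, 2.28, 1.25 and 1.74 against 0.695, 0, 0.190 and 0, without overlap, and the log2 fold change was −3.42 (SE 1.09, adjusted p = 0.178).

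Snrpn itself had 418, 395, 431 and 422 CPM in controls and 271, 378, 365 and 280.0 CPM in knockouts, again without overlap (log2 fold change −0.37, SE 0.12, adjusted p = 0.178 from edgeR). Ndn, a further MAGE family gene, had 4.14 to 6.62 CPM in controls and 1.52 to 4.70 CPM in knockouts, and its groups overlapped (log2 fold change −0.68, adjusted p = 0.546). The maternally expressed ubiquitin ligase gene Ube3a at the edge of the cluster had a log2 fold change of 0.05 (adjusted p = 0.900). Peg12 failed the filter. All 4 paternal genes tested in the cluster had a negative log2 fold change, with a median of −0.68 over its 5 tested members.

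No member of that cluster had an adjusted p under 0.05, and among all tested members Rtl1 was the only lower one that did. Rtl1 is a retrotransposon-derived, paternally expressed gene of the Dlk1-Meg3 cluster. It had 31.0, 34.9, 26.6 and 34.7 CPM in controls and 12.9, 15.1, 20.2 and 16.5 CPM in knockouts, with every knockout below every control. Its log2 fold change of −0.97 (SE 0.21, adjusted p = 0.0492 from edgeR) did not reach the fold threshold, and in replicate 4 alone the difference was −1.05. Maternal microRNA precursors lie over Rtl1 on the opposite strand. Meg3 had 348 to 413 CPM in controls and 266 to 352 CPM in knockouts (log2 fold change −0.25, adjusted p = 0.341). Inpp5f, a phosphoinositide phosphatase with a paternally expressed brain isoform, had 48.3 to 64.9 CPM in controls and 29.5 to 39.7 CPM in knockouts. Its groups did not overlap either (log2 fold change −0.65, SE 0.16, adjusted p = 0.0800 from edgeR). Only 1 of its 8 listed transcripts was counted, and whether that is the imprinted isoform was not checked.

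The remaining members of the Ehmt2 cross were near their controls or too variable to call. In the Kcnq1 cluster 5 of 8 tested members had a positive log2 fold change, with a median of 0.84. Beside Phlda2 and Cdkn1c these were Kcnq1, a potassium channel gene, at 1.399, Ascl2, a trophoblast transcription factor, at 1.27, and Cd81 at 0.41, with adjusted p between 0.139 and 0.635 outside Phlda2. Ascl2 had 8.23 and 7.60 CPM in knockouts 2 and 3 and 0.109 CPM in knockout 4, against 1.05 to 2.09 CPM in controls. Nap1l4 had 113 to 132 CPM in controls and 95.1 to 128 CPM in knockouts. Peg3 had 239, 458, 199 and 145 CPM in controls and 617, 594, 355 and 274 CPM in knockouts (log2 fold change 0.83, SE 0.24, adjusted p = 0.139 from edgeR).

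Igf2r, the maternally expressed receptor that clears IGF2, had 83.4 to 116 CPM in controls and 103 to 171 CPM in knockouts (log2 fold change 0.42, adjusted p = 0.145); it lies 22.1 megabases from Ehmt2 on chromosome 17, where the alleles linked to the deletion and the deletion itself cannot be told apart. Mest had 153 to 256 CPM in controls and 197 to 238 CPM in knockouts, and Copg2 80.2 to 116 and 92.7 to 133 CPM. Grb10 had 388 to 513 CPM in controls and 255 to 475 CPM in knockouts, and Gnas 354 to 460 and 234 to 387 CPM. Their groups overlapped, with log2 fold changes of −0.01 for Mest, 0.15 for Copg2, −0.29 for Grb10 and −0.30 for Gnas. The other 18 tested members, among them Nnat, Blcap, Impact and Zdbf2, had overlapping groups, with log2 fold changes from −1.20 (Slc22a18) to 1.39 (Asb4) and adjusted p from 0.255 to 0.991. Usp29 is uncertain, since 96.7% of its counted transcript lies over Zim3 on the opposite strand. By textbook allele, 8 of 20 tested paternal genes had a positive log2 fold change (median −0.03) and 16 of 22 maternal genes did (median 0.23). The counts do not separate alleles, and some of these genes are imprinted mainly in placenta or brain. Of the 11 tested members imprinted mainly in placenta, 8 were positive, with a median of 0.66.

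**Figure D3:**
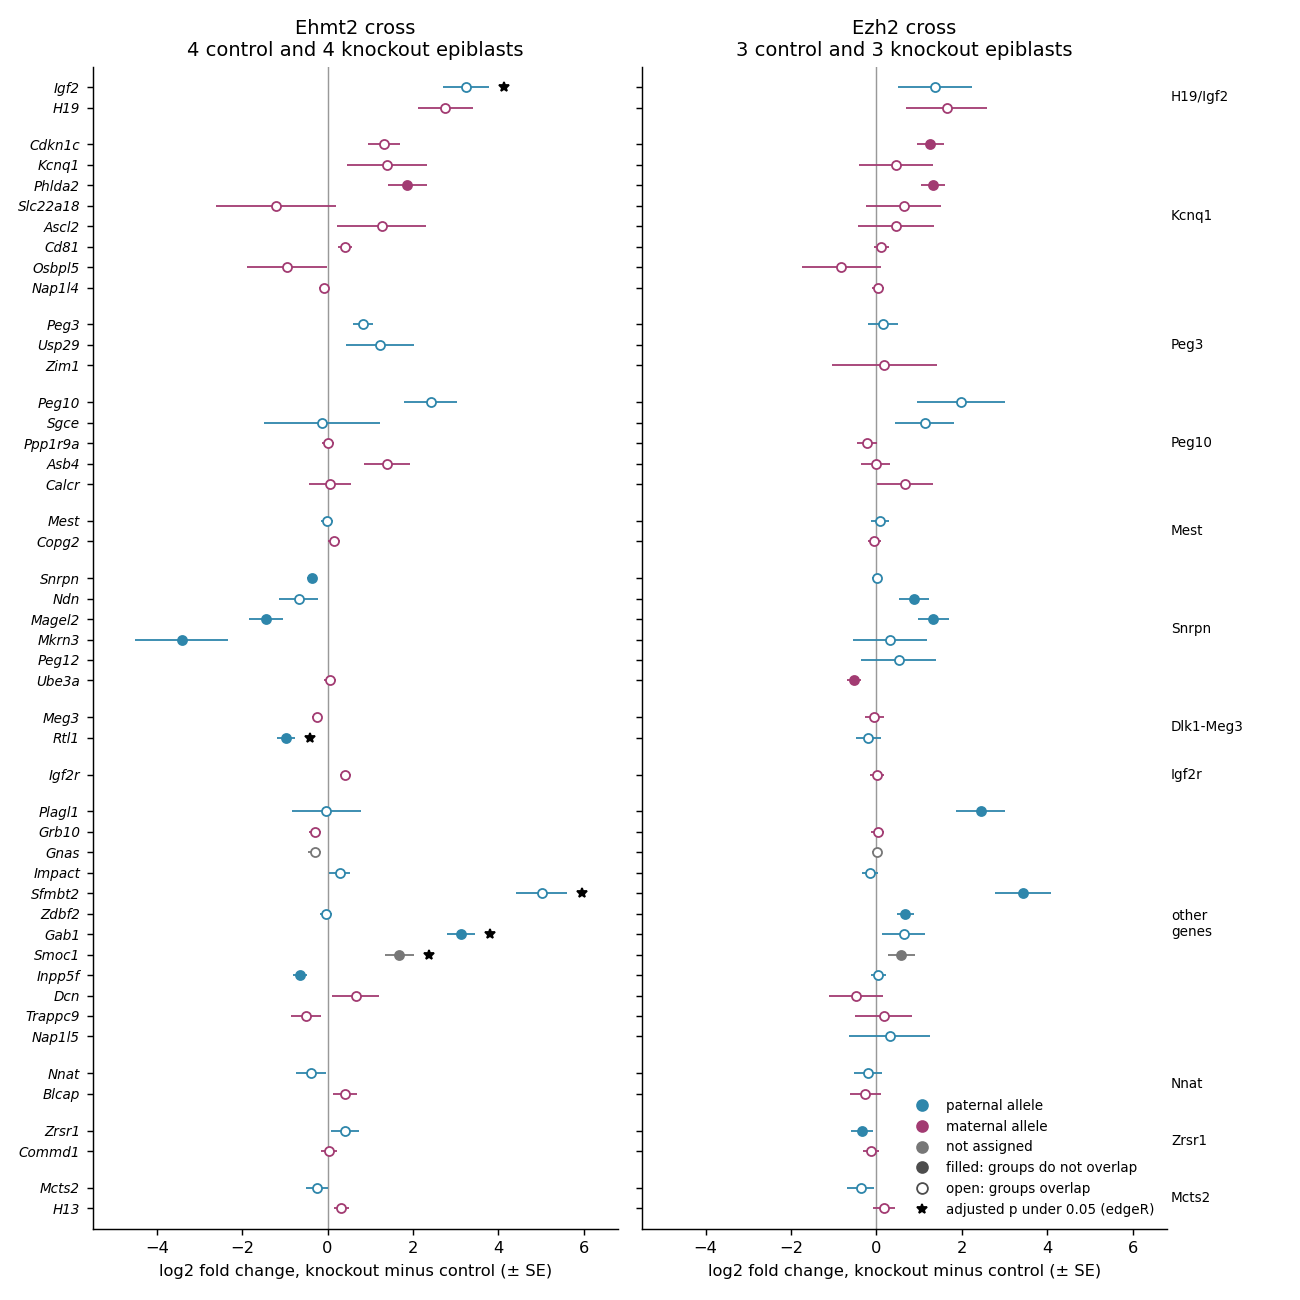
Each point is the log2 fold change of an imprinted gene, knockout minus control, with its standard error from edgeR, ordered by cluster and coloured by expressed allele; filled points are genes whose groups do not overlap and stars mark an adjusted p under 0.05. The Ehmt2 panel has Sfmbt2 at 5.01, Igf2 at 3.24 and Gab1 at 3.13 on the right and Mkrn3 at −3.42 on the left, and the Ezh2 panel has Sfmbt2 at 3.44 and Plagl1 at 2.44 with no star.

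In the Ezh2 cross 46 of the 55 members passed the filter; Tspan32, Usp29, Dlk1, Slc22a2 and Slc22a3 of those listed did not. No member was called by edgeR, in either direction, and neither was any of the 13998 genes tested (0%). DESeq2 called 2 members higher, Sfmbt2 and Plagl1, where it called 0.329% of all genes. At any fold 6 members had a DESeq2 adjusted p under 0.05 (Phlda2, Cdkn1c, Magel2 and Zdbf2 beside these 2), where 0.764% of all genes did. At an unadjusted p under 0.05 from edgeR 7 members were higher, where 4.34% of all genes were, and 1 was lower, where 3.65% were, or 8 of 46 against 7.99% in either direction. The per-embryo rule also gave Sfmbt2 and Plagl1 higher, against 0.743% of all genes, and none lower, against 0.114%. In 8 members each knockout was above every control (7.27% of all genes) and in 2 each was below (7.52%). The median log2 fold change was 0.16 over the 46 members and 0.01 over all genes. With 3 epiblasts against 3, the exact permutation test cannot go below 0.10.

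Sfmbt2 had 9.50, 22.2 and 1.81 CPM in controls and 139, 142 and 81.9 CPM in Ezh2 knockouts. Each knockout was well above every control, and the log2 fold change was 3.44 (SE 0.66, adjusted p = 0.357 from edgeR and 0.0295 from DESeq2). Plagl1, a paternally expressed zinc finger transcription factor that restrains growth (chromosome 10, 13090788 to 13131694, plus strand), had 22, 11 and 10 counts in controls and 68, 57 and 117 counts in knockouts. These were 1.57, 0.802 and 0.722 CPM against 5.34, 3.87 and 7.68 CPM, with a log2 fold change of 2.44 (SE 0.57, adjusted p = 0.441 from edgeR and 0.0319 from DESeq2). In the Ehmt2 cross Plagl1 was at 0.936 to 3.49 CPM in controls and 0.286 to 5.25 CPM in knockouts, with no common direction. The extraembryonic ectoderm sum was 40.4, 21.6 and 9.92 CPM in knockouts 1 to 3 and 5.25 to 9.07 CPM in controls, and its part in the Sfmbt2 values was not tested. Without the pair of epiblasts that were rich in visceral endoderm markers, control 2 and knockout 1, the log2 fold changes were 4.30 for Sfmbt2 and 2.32 for Plagl1.

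Magel2 had 11.4, 12.3 and 8.89 CPM in controls and 16.5, 43.3 and 22.0 CPM in Ezh2 knockouts (log2 fold change 1.33, SE 0.37, adjusted p = 0.456 from edgeR and 0.0397 from DESeq2). Every knockout was above every control, where every Ehmt2 knockout was below. Its neighbour Ndn had 7.998, 7.66 and 5.35 CPM in controls and 8.32, 14.9 and 15.6 CPM in knockouts, also above (log2 fold change 0.89, adjusted p = 0.565). Snrpn stayed level, at 364, 366 and 437 CPM against 363, 440.1 and 368 CPM. Mkrn3 had 0.786, 1.31 and 0.795 CPM in controls and 2.28, 1.15 and 0.197 CPM in knockouts, so its groups overlapped. Ube3a had 99.8, 92.1 and 120.5 CPM in controls and 81.2, 74.8 and 59.6 CPM in knockouts and was the member lower at an unadjusted p under 0.05 (log2 fold change −0.54, adjusted p = 0.456).

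Phlda2 and Cdkn1c of the Kcnq1 cluster had groups without overlap here, and neither passed the adjusted threshold of edgeR in either cross. Phlda2 had 10.7, 6.78 and 9.46 CPM in controls and 24.0, 18.0 and 25.9 CPM in knockouts (log2 fold change 1.33, SE 0.29, adjusted p = 0.365 from edgeR and 0.0103 from DESeq2). Cdkn1c had 9.93, 6.20 and 12.8 CPM in controls and 26.3, 19.01 and 24.0 CPM in knockouts (log2 fold change 1.26, SE 0.32, adjusted p = 0.441 from edgeR and 0.0311 from DESeq2). The extraembryonic ectoderm sum given above was also higher in each knockout than in every control, and its part in these values was not tested. Zdbf2, a paternally expressed zinc finger gene, had 186, 141 and 228 CPM in controls and 242, 287 and 358 CPM in knockouts (log2 fold change 0.68, adjusted p = 0.456 from edgeR and 0.0397 from DESeq2). Smoc1 had 7.498, 12.2 and 11.4 CPM in controls and 20.3, 13.5 and 12.8 CPM in knockouts (log2 fold change 0.58, adjusted p = 0.693). Dlk1, below the filter, had 2, 3 and 0 counts in controls and 24, 33 and 10 counts in knockouts.

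**Figure D4:**
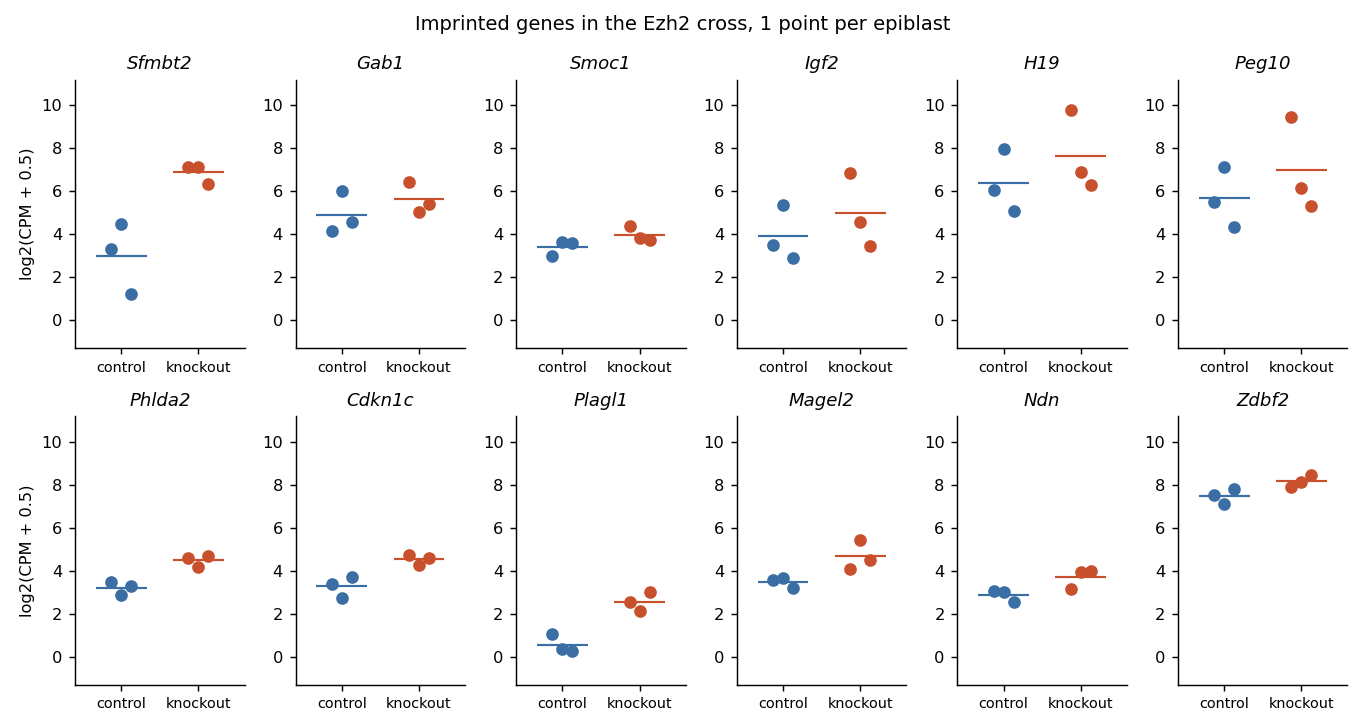
Each point is an epiblast of the Ezh2 cross, as log2(CPM + 0.5), for 12 imprinted genes, with lines at the mean of the log2 values (3 controls, 3 knockouts). In Sfmbt2, Smoc1, Phlda2, Cdkn1c, Plagl1, Magel2, Ndn and Zdbf2 every knockout is above every control, and in H19, Igf2 and Peg10 a single high knockout and a single high control spread both groups.

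H19, Igf2 and Peg10 were highest in the 2 epiblasts of this cross with the most visceral endoderm markers. H19 had 66.6, 249 and 33.7 CPM in controls and 898, 118 and 78.3 CPM in knockouts. Igf2 had 10.8, 40.5 and 7.01 CPM against 117, 23.7 and 10.51 CPM, and Peg10 45.1, 142 and 20.1 CPM against 711, 70.1 and 39.9 CPM. In each gene knockout 1 and then control 2 were highest, and the part of that tissue in the values was not tested. The log2 fold changes were 1.65, 1.37 and 1.99 with all 6 epiblasts, and −0.24, −0.18 and −0.33 without knockout 1. With control 2 and knockout 1 both left out they were 0.97, 0.94 and 0.75 (adjusted p from 0.655 to 0.795, edgeR). Gab1 had 17.4, 63.4 and 23.3 CPM in controls and 86.4, 32.5 and 42.6 CPM in knockouts, with the same 2 epiblasts highest (log2 fold change 0.63, SE 0.50, adjusted p = 0.795).

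**Figure D5:**
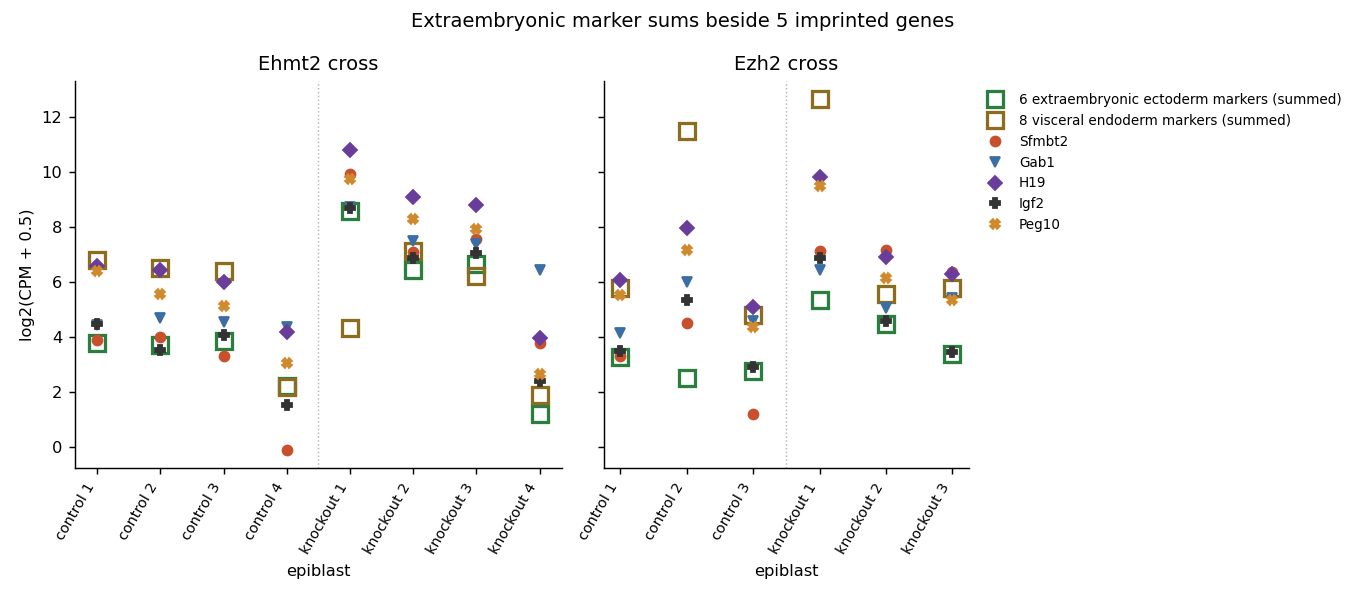
Squares are the summed CPM of 6 extraembryonic ectoderm and 8 visceral endoderm markers in each epiblast, on the log2(CPM + 0.5) scale, beside the same scale for Sfmbt2, Gab1, H19, Igf2 and Peg10. The ectoderm sum is highest in Ehmt2 knockout 1 (377 CPM) and the endoderm sum in Ezh2 knockout 1 (6421 CPM). In Ehmt2 knockout 4 both sums are under 4 CPM, and Gab1 is at 85.7 CPM, against 424, 179.6 and 165 CPM in Ehmt2 knockouts 1 to 3.

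The remaining Ezh2 values were close to level or too variable to call. Grb10 had 625, 741 and 517 CPM in controls and 738, 561 and 618 CPM in knockouts, and Gnas 380.5, 462 and 451 against 381, 449 and 475 CPM. Meg3 had 348, 608 and 482 CPM in controls and 469, 353 and 567 CPM in knockouts, and Peg3 477, 741 and 230.2 against 716, 469.6 and 422 CPM. Mest had 161 to 265 CPM in controls and 169.9 to 281 CPM in knockouts, Copg2 97.4 to 126 and 98.4 to 128 CPM, Cd81 94.1 to 144 and 109.8 to 147 CPM, and Nap1l4 114 to 122 and 106 to 143 CPM. The 7 genes just named other than Peg3 had log2 fold changes between −0.05 and 0.12. Zrsr1, a paternally expressed splicing gene, was the second of the 2 members with each knockout below, at 14.1, 18.6 and 16.5 against 13.97, 13.1 and 11.7 CPM (log2 fold change −0.34, adjusted p = 0.774). The other 22 tested members, Kcnq1, Ascl2, Rtl1, Inpp5f and Igf2r among them, had overlapping groups, with log2 fold changes from −0.82 (Osbpl5) to 1.14 (Sgce) and adjusted p from 0.717 to 0.998. By textbook allele, which was not measured here, 16 of 21 tested paternal genes had a positive log2 fold change (median 0.32). Of the maternal genes 14 of 23 did (median 0.03). Of the 11 tested members imprinted mainly in placenta 8 were positive, with a median of 0.46. Listed members on chromosome 6, the chromosome of Ezh2, numbered 8 and lay 11.3 to 43.8 megabases from it.

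The difference between the crosses was tested directly, as the Ehmt2 effect minus the Ezh2 effect over all 14 epiblasts, which share no control. Of 49 members tested 14 had an unadjusted p under 0.05, where 9.53% of the 15199 genes did, and none had an adjusted p under 0.05 (edgeR), where 20 genes (0.132%) did. DESeq2 gave 1 member, Magel2, where it gave 131 genes (0.862%). Its difference was −2.79 on the log2 scale (SE 0.58, adjusted p = 0.101 from edgeR and 0.000605 from DESeq2), and the edgeR value was −3.19 (adjusted p = 0.0434) without replicate 4 of the Ehmt2 cross. Gab1 differed by 2.48 (SE 0.65, adjusted p = 0.203 from edgeR), Ndn by −1.58 (adjusted p = 0.375) and Plagl1 by −2.48 (adjusted p = 0.493). The largest difference was that of Dlk1, −6.40 (adjusted p = 0.311), a gene below the filter in each cross alone. Adjusted p was also lower than that of Ndn for Inpp5f (0.348), Zdbf2 (0.364) and Ube3a (0.369). For Sfmbt2, high in the knockouts of both crosses, the difference was 1.57 with an SE of 0.93 (adjusted p = 0.639), too wide to say that the effects were alike.

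A list of 14 factors of imprint maintenance and of DNA and histone methylation was tested in both crosses. It held Zfp57, Trim28, Dnmt1 and Uhrf1, and also Dnmt3a, Dnmt3b, Dnmt3l, Eed, Suz12 and Ehmt1. None of the 14 had an adjusted p under 0.05 from edgeR. In the Ehmt2 cross 5 of the 14 had an unadjusted p under 0.05, where 14.4% of all genes did, and 1 in the Ezh2 cross, where 7.99% did. The lowest adjusted p belonged to Dnmt3b, the main de novo DNA methyltransferase of the epiblast, in the Ehmt2 cross (log2 fold change −0.52, adjusted p = 0.0521), with each knockout below every control. Zfp57 had log2 fold changes of −0.50 in the Ehmt2 and 0.23 in the Ezh2 cross (adjusted p = 0.593 and 0.866). Zfp445, also listed, had each Ehmt2 knockout below every control (log2 fold change −0.52, adjusted p = 0.185 from edgeR). Dnmt3l had the largest change in that cross (1.10, adjusted p = 0.167), with overlapping groups. Each Ezh2 knockout was below every control for Eed (−0.47, adjusted p = 0.508) and above for Dppa3 (1.03, adjusted p = 0.642).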

How the data were processed

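RNA of 14 single E6.25 epiblasts was measured by RNA-seq; the ChIP-seq and bisulfite samples of the series were not used here. Per the study's methods, RNA was amplified with the Ovation V2 kit, which does not keep strand, and reads were trimmed to 40 nt, aligned to GRCm38 with TopHat2 and counted with HTSeq on Ensembl release 74 transcripts. The authors deposited these counts without normalisation. Of 72516 listed transcripts 96.6% were matched to GENCODE vM21 names, and counts on the remainder made up 2.38 to 15.4% of a sample. A transcript absent from a sample's file was taken as 0. Only 1 transcript per gene entered the fits, since isoforms share reads; 18 members had a single listed transcript.

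Low counts were removed with filterByExpr by genotype, and counts were scaled by TMM. Each cross was fitted alone with edgeR 4.0.16 (glmQLFit, glmQLFTest), with Benjamini-Hochberg adjustment over all genes tested; the Ehmt2 model had a term separating replicates 1 to 3 from replicate 4. This follows the names of the study's comparison columns, which set knockout 4 against control 4; its methods text instead compares each knockout with all controls. Standard errors are the log2 fold change over the square root of F. The per-embryo rule compared each Ehmt2 knockout with the controls of its set and each Ezh2 knockout with all 3 controls, combined p-values by Fisher's method, and asked for log2(normalised count per kb) over 1 in every epiblast of the higher group. Single genes were compared in CPM by two-sided exact permutation tests (scipy 1.17.1). DESeq2 1.42.0 was an alternative. Scripts were tested on simulated data.

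The labels name each epiblast as a separate sample of its group, and the methods state 4 and 3 litters; epiblasts of a litter share more than unrelated ones would. Replicate numbers were not taken as pairs, apart from the term that separates replicate 4 of the Ehmt2 cross. The imprinted genes, clusters, marker lists and tests were chosen with earlier results of these data known, and cluster and allele assignments are textbook ones. Values in every epiblast are given for members called by either rule, for those whose groups do not overlap with a log2 fold change beyond 1, and for the 10 with the highest level in the 7 controls; for the other members given in full the values were seen first.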

Additional observations from a re-analysis of the deposited data

Results flagged for a closer look

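Magel2 moved in opposite directions in the 2 crosses: each of 4 Ehmt2 knockouts was below every control of its cross, and each of 3 Ezh2 knockouts was above every control of its own. The Ehmt2 effect minus the Ezh2 effect was −2.79 on the log2 scale (standard error 0.58), with an adjusted p of 0.101 from edgeR that missed the threshold. The adjusted p was 0.0434 without replicate 4 of the Ehmt2 cross and 0.000605 from DESeq2. No other member had groups apart in both crosses in opposite directions. In the 38 groups of 4 Ehmt2 epiblasts formed by the 19 members named by the rule, no epiblast lay apart in CPM by Dixon's criterion, which flags about 1 group in 20 by chance. On the log2(CPM + 0.5) scale 1 did, the lowest of the Gnas knockouts, whose gap was 0.853 of the group's range.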

How the results depend on the processing

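The number of imprinted genes called higher in the Ehmt2 cross was 4, and 7 without the filter on low counts, 7 without replicate 4 of both groups, 1 without the term for the comparison set, and 2 to 7 with single epiblasts left out; the number called lower was 0, and 1 with DESeq2, 1 without replicate 4 of both groups and 0 to 1 with single epiblasts left out. By the per-embryo rule 2 were higher, and 1 with all 4 controls. In the Ezh2 cross 0 were called higher, and 2 with DESeq2. The test between the crosses gave 0 members, and 1 with DESeq2 and 1 without Ehmt2 replicate 4. In the Ezh2 cross 3 log2 fold changes turned negative without knockout replicate 1: Igf2 (−0.18), H19 (−0.24) and Peg10 (−0.33); with single epiblasts left out these 3 ranged up to 2.49, 2.86 and 3.06, each without control replicate 2. Of 407 recomputed single-gene values, 364 kept direction and call, 16 lost a call, 24 gained a call and these 3 changed direction; the cause was not tested. Replicate numbers did not pair the samples, apart from replicate 4. Among Ehmt2 replicates 1 to 3, correlations of deviations across genes were 0.051 to 0.192 for same-numbered control and knockout and 0.052 to 0.189 for the others. Control 4 and knockout 4 correlated at 0.395, and other pairs with either of them at −0.27 to −0.12. In the Ezh2 cross same-numbered pairs had −0.17 to 0.22 and the others −0.28 to 0.22. With the replicate block 3 members were called higher in the Ehmt2 cross (Smoc1 lost, adjusted p = 0.0769) and 0 in the Ezh2 cross, and 0 were lower in either. Over all genes the Ehmt2 cross had 112 called higher and 12 lower; these were 225 and 61 with DESeq2, 220 and 28 without the filter, 218 and 29 over all transcripts, 61 and 4 with transcripts summed, 28 and 0 without the comparison-set term, 70 and 1 with the block, 189 and 16 without replicate 4 of both groups, 72 and 3 without replicate 1 of both groups (chosen after seeing the data), and 49 to 185 and 2 to 16 with single epiblasts left out. In the Ezh2 cross edgeR called 0 and 0 (232 and 40 past the fold at an unadjusted p under 0.05), DESeq2 46 and 2, and edgeR 9 and 1 without control 2 and knockout 1 (also chosen after seeing the data), 0 to 7 and 0 to 1 with single epiblasts left out, 0 and 6 over all transcripts, 0 and 1 without the filter or with the block, and 1 and 0 with transcripts summed. A count of 0 allows up to 0.240 CPM, so differences below that were not detectable.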
